A study of Helicoverpa armigera with 12 samples.

Results

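The change from the feeding larva to the moth was followed in the cotton bollworm *Helicoverpa armigera* by setting 4 whole-body libraries of adults against 4 of 5th instar larvae, contig by contig. The members are the 27678 contigs, of 99711 in the table, whose FPKM averaged at least 1 over all 12 libraries of the series. FPKM counts the fragments of RNA assigned to an assembled sequence (contig) relative to its length and to all fragments mapped in its library. The adults comprised 2 libraries of males (replicates 1 and 2) and 2 of females (replicates 3 and 4), each from 10 moths on day 1 after eclosion. Each of the 4 larval libraries came from 10 larvae of the 5th instar on day 1 after ecdysis, whose sex is not given in the sources used here. All were reared on an artificial diet, adults were given sugar and vitamins, and the sources name no mutation or treatment for any library. The study sequenced these stages, with 4 further libraries of 1st instar larvae that enter the fit here, to find the opsins of a nocturnal moth.

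A 5th instar caterpillar eats, digests and stores. Its midgut secretes serine proteases and lipases into a food bolus wrapped in a chitin-lined peritrophic matrix, detoxifies plant compounds, and the fat body fills the blood with storage proteins. In the pupa the midgut, muscles and cuticle are rebuilt, so the adult emerges with flight muscle, compound eyes, antennae and gonads, drinks sugar solutions and lives partly on what the larva stored.

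Summed over all contigs, a library held 447094 to 688947 FPKM in adults, against 1074573 to 1460003 in 5th instar larvae, so the choice of scale shifts all differences. On log2(FPKM + 1) the median difference, adults minus 5th instar larvae, over the 27678 contigs was -0.19. It became -0.11 when libraries were scaled by median ratios, 0.15 after quantile normalization and 0.53 when all libraries were scaled to the same sum (TPM). Across contigs, which are not independent, log2(FPKM + 1) correlated at 0.882 between the males, 0.846 between the females, 0.617 to 0.713 between the sexes, 0.725 to 0.868 among 5th instar larvae and 0.399 to 0.607 between adults and these larvae. Female replicate 3 differed from the other adults in ribosomal, mitochondrial and yolk contigs, given below. A direction is given below as independent of scale only where a contig passed the test under all 4 scalings. With the deposited values and an adjusted p below 0.05 (limma, Benjamini-Hochberg over all contigs), 2022 contigs (7.31%) were higher in adults and 5460 (19.7%) were lower, together 27.0%. The split was 7773 higher and 3175 lower under TPM, 3976 and 3833 after quantile normalization, and 2470 and 4945 under median ratios. All 2022 contigs higher in adults also passed under the other 3 scalings, but only 3096 (11.2% of the contigs) of those lower did. Each of these 3 scalings moved the median difference towards adults. Passing under all 4 was therefore nearly given for contigs higher in adults, and the check bears on those lower. Every adult library lay above every larval library for 1824 contigs (6.59%) and below for 4451 (16.1%).

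**Figure D1:**
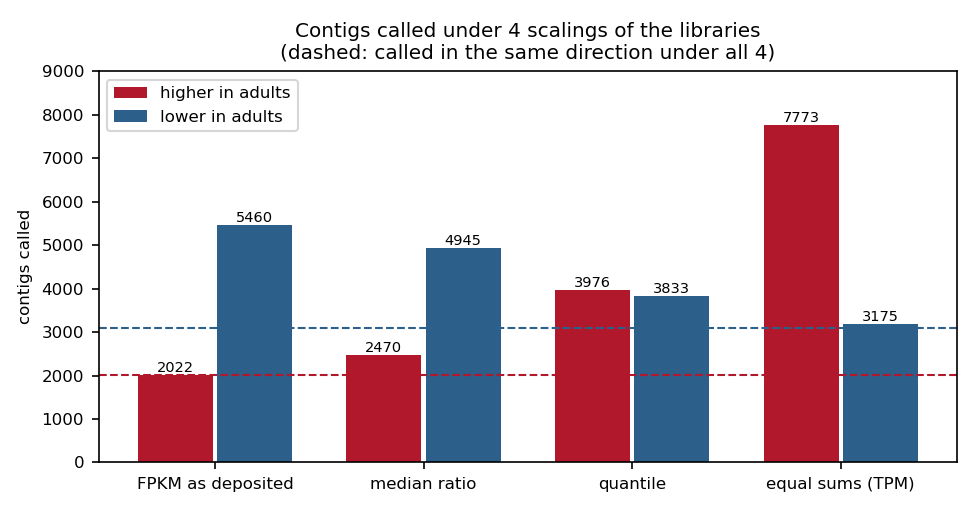
Number of contigs called higher (red) and lower (blue) in adults than in 5th instar larvae under 4 scalings of the libraries, at an adjusted p below 0.05. The deposited FPKM gave 2022 higher and 5460 lower, equal sums gave 7773 and 3175, and the dashed lines mark the 2022 and 3096 contigs called the same way under all 4.

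Both sexes were then set against the same 4 larval libraries, which the 2 comparisons therefore share. Males were higher for 3499 contigs (12.6%) and lower for 5215 (18.8%), females higher for 2450 (8.85%) and lower for 5478 (19.8%). Under TPM these were 7119 and 2835 in males, 10068 and 3512 in females, and after quantile normalization 4522 and 3929 in males, 6128 and 3691 in females. Both sexes passed on their own for 1096 contigs higher in both (3.96%) and 3692 lower in both (13.3%). Opposite calls were few, with 53 contigs (0.191%) higher in males and lower in females, and 161 (0.582%) lower in males and higher in females. The difference between the sexes was tested directly as males minus females, where 1889 contigs (6.82%) were higher and 1538 (5.56%) lower in males. Under all 4 scalings these were 1412 and 1506. The split leaned to females under TPM (1818 higher and 3456 lower in males) and after quantile normalization (1681 and 2871). Single libraries weighed on these counts: without male replicate 1 the male comparison with larvae gave 5212 contigs in place of 8714 and the sex comparison 1958 in place of 3427, and without female replicate 3 the female comparison gave 4573 in place of 7928 and the sex comparison 2074. Among the 2022 contigs higher in adults, 308 were higher in males than in females and 52 lower, together 17.8% of them and 1.3% of all contigs. Among the 5460 lower in adults, these counts were 80 and 55, together 2.47% of them and 0.488% of all contigs, and among the 20196 contigs with no call they were 1501 and 1431. In the fit of stages a difference between the sexes adds to the spread among adults, so such contigs pass less readily. Contigs near 0 in every adult library can also hardly differ between the sexes. These shares therefore do not measure how far the sexes agree.

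Of the 27678 contigs, 15272 carried a name with a function, 13202 of them from nr and 2070 from Swiss-Prot, and 12406 carried none. Names are those of best database matches, many in other species, so a contig may be a fragment, an isoform or a close relative of the named gene. Contigs were grouped into 43 lists by words in these names. The shares to set beside the counts of any list are 7.31% higher and 19.7% lower over all contigs, and 11.2% lower under all 4 scalings. Between the sexes they are 6.82% higher and 5.56% lower in males. The filter matters for the counts: 2848 contigs averaged at least 1 FPKM in adults and less in larvae, 4370 the reverse, and such a contig could pass the filter through the stage where it is high. Of the 18898 contigs with a mean of at least 1 FPKM in both stages, 1231 (6.51%) were higher and 2838 (15.02%) lower in adults. In whole bodies fewer cells of a type and less RNA per cell cannot be told apart.

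**Figure D2:**
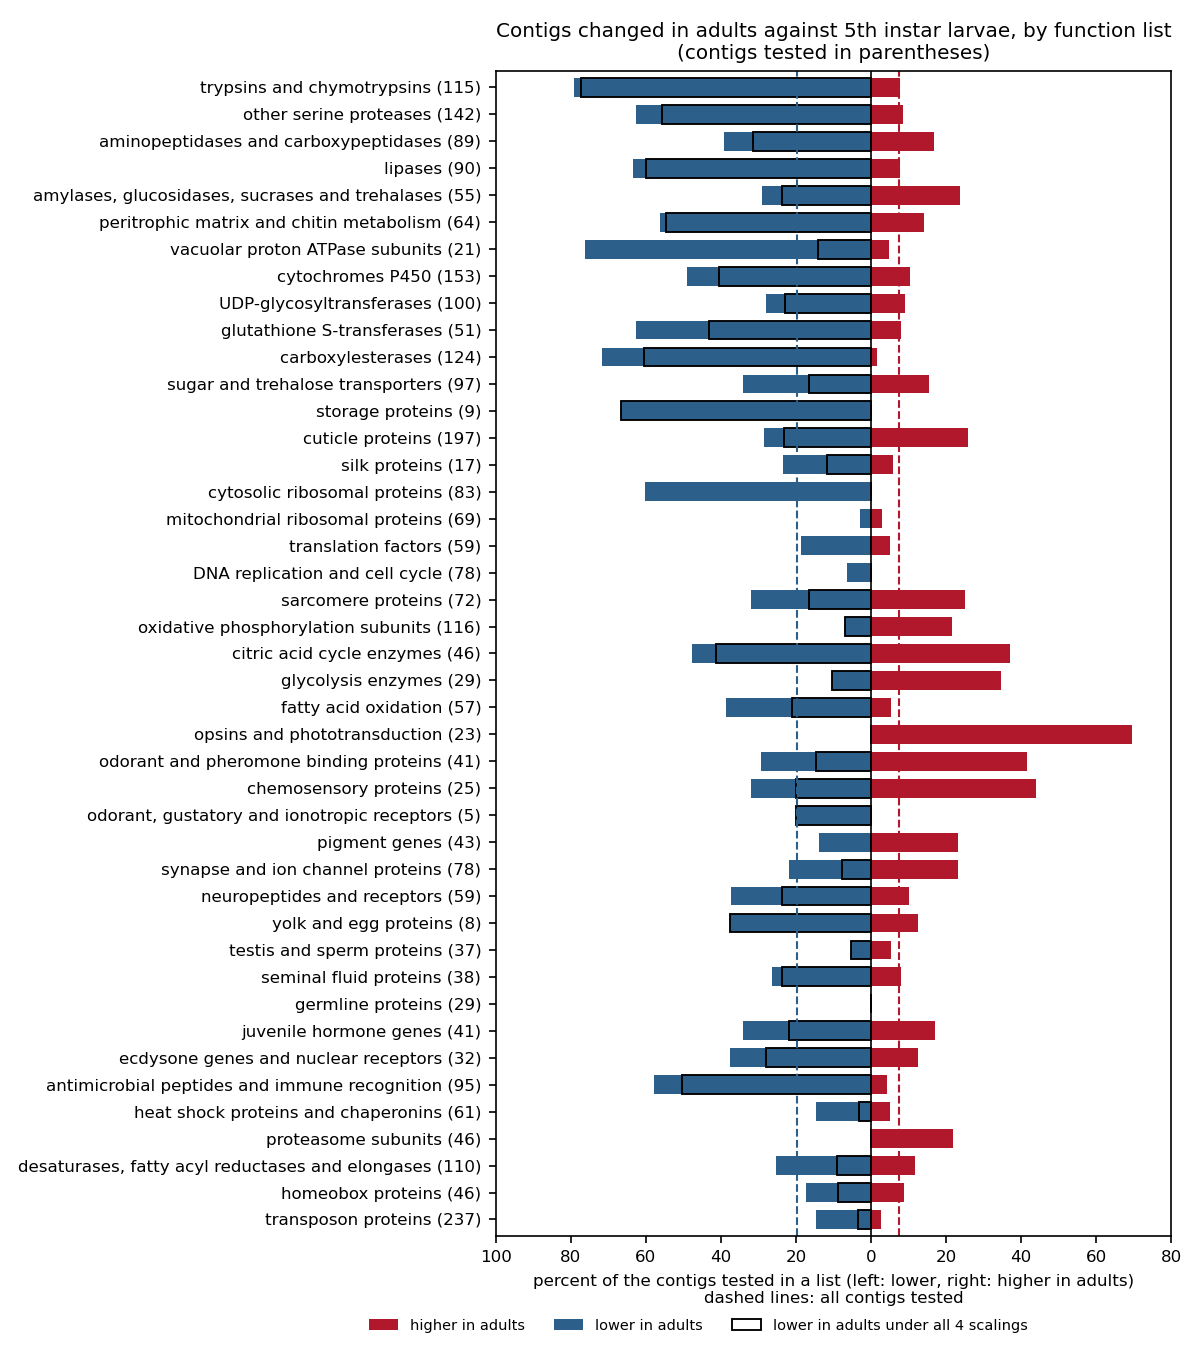
Percent of the contigs tested in each of 43 function lists that were higher (red, to the right) or lower (blue, to the left) in adults, set against 5th instar larvae, with black outlines for those lower under all 4 scalings and dashed lines for all contigs (7.31% and 19.7%). Trypsins and chymotrypsins (91 of 115 lower) and opsins and phototransduction (16 of 23 higher) stand at the 2 ends, and no outline is drawn for the 50 lower cytosolic ribosomal proteins.

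Proteases of the larval gut were mostly low in the moth. Trypsins and chymotrypsins, the serine proteases that cut dietary protein, numbered 115 contigs of 75 unigenes, of which 91 were lower in adults (79.1%, against 19.7% of all contigs), 89 of them under all 4 scalings, and 9 were higher. Their median difference was -5.49, against -0.19 over all contigs. Together they held 0.0657% to 0.131% of the FPKM of an adult library, against 4.56% to 9.99% of a larval one. Only 13 of the 115 averaged at least 1 FPKM in both stages, 8 of them lower. The chymotrypsin-like protease c58594_g2_i1 had 2.88 and 2.07 FPKM in males and 0.87 and 1.26 FPKM in females, against 19085, 6393, 18042 and 6369.8 FPKM in 5th instar larvae (log2 difference -12.00 ± 0.39, adjusted p = 6.89e-10; the value after ± is the SE, and all differences in FPKM below are on log2(FPKM + 1), which understates the change of low contigs). No adult library reached 3 FPKM and the lowest larval one had 6369.8 FPKM, and larval replicates 1 and 3 lay well above replicates 2 and 4. Against larvae 89 contigs were lower and 12 higher in males, 88 lower and 4 higher in females, and 6 were higher in males than in females under all 4 scalings.

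Of the 9 contigs higher in adults, trypsin, alkaline C (c54587_g2_i1) had 144 and 265 FPKM in males and 129 and 115 FPKM in females, against 3.48, 8.49, 5.72 and 6.66 FPKM in 5th instar larvae (4.51 ± 0.31, adjusted p = 3.97e-07). Trypsin CFT-1-like (c62562_g2_i1) had 111 and 106 FPKM in males and 38.5 and 105 FPKM in females, against 0, 0, 0.416 and 0.245 FPKM in 5th instar larvae (6.19 ± 0.32, adjusted p = 3.70e-08), but summed over the isoforms of its unigene the difference was 0.30 (adjusted p = 0.542). All adult libraries were above all larval ones in both, which was a condition for naming them.

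Other secreted hydrolases also had more contigs lower than higher. Of 142 other serine proteases, 89 were lower (62.7%, against 19.7% of all contigs, and 79 under all 4 scalings) and 12 higher, with a median of -2.17. Of 56 that averaged at least 1 FPKM in both stages 26 were lower and 6 higher. The contig described as a diverged serine protease, c52620_g1_i1, had 0.41 and 0.606 FPKM in males and 0.526 and 0.494 FPKM in females, against 7167, 3593, 5570.3 and 5841 FPKM in 5th instar larvae (-11.80 ± 0.21, adjusted p = 3.39e-11). Among 89 aminopeptidases and carboxypeptidases, which trim peptides from their ends, 35 were lower (39.3%, and 28 contigs under all 4 scalings) and 15 higher (16.9%, against 7.31% of all contigs). Of 48 that averaged at least 1 FPKM in both stages 13 were lower and 12 higher, so the calls were nearly even there. A carboxypeptidase precursor (c46664_g1_i1) was near 0 in the moth, with 0.03 and 0.171 FPKM in males and 0.091 and 0.09 FPKM in females, against 1186, 490.4, 858 and 1078 FPKM in 5th instar larvae (-9.61 ± 0.29, adjusted p = 3.95e-10). Of 90 lipases 57 were lower, 54 of them under all 4 scalings, and 7 were higher, with a median of -3.55. Of 26 that averaged at least 1 FPKM in both stages 12 were lower and 2 higher. Neutral lipase c55249_g1_i1 had 0.06 and 0.124 FPKM in males and 0.195 and 0.466 FPKM in females, against 3268, 2035, 3329 and 1383 FPKM in 5th instar larvae (-10.94 ± 0.28, adjusted p = 1.44e-10). Lipase 1-like c62546_g1_i1 went the other way, with 12.9 and 8.36 FPKM in males and 14 and 7.18 FPKM in females, against 0.572, 0.555, 0.094 and 0.117 FPKM in 5th instar larvae (3.10 ± 0.24, adjusted p = 1.17e-06).

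Enzymes of sugar digestion had contigs called in both directions. Of 55 amylases, glucosidases, sucrases and trehalases, 16 were lower and 13 higher, and the median was -0.04. Beta-fructofuranosidase 2 (c59228_g1_i1), an enzyme that splits sucrose, had 1173 and 1305 FPKM in males and 158 and 594 FPKM in females, against 0.483, 0, 1.94 and 0 FPKM in 5th instar larvae (8.74 ± 0.58, adjusted p = 3.49e-07). The larval libraries held at most 2 FPKM and female replicate 3 was the lowest adult. The contig named alpha amylase, c59075_g1_i1, had 778 and 564 FPKM in males and 152 and 225 FPKM in females, against 0.521, 0.306, 1.2 and 0.896 FPKM in 5th instar larvae (7.69 ± 0.44, adjusted p = 8.46e-08), and it was higher in males than in females by 1.83 ± 0.30 (adjusted p = 0.00217). Another contig named alpha-amylase, c75698_g1_i1, had 4.35 and 3.06 FPKM in males and 9.63 and 0.59 FPKM in females, against 466, 384, 1139 and 678 FPKM in 5th instar larvae (-7.12 ± 0.60, adjusted p = 2.92e-06). The 2 amylases thus differed in opposite directions, each with no overlap between the stages. Contigs were named for each direction and only without overlap, so both follow from the choice.

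Contigs of the gut lining were more often lower than higher. Of 64 contigs of the peritrophic matrix and of chitin metabolism, 36 were lower (35 under all 4 scalings) and 9 higher, with a median of -1.63. Of 24 that averaged at least 1 FPKM in both stages 8 were lower and 3 higher. Chitin binding PM protein (c41056_g1_i1), named as a component of that matrix, had 0.239 and 0.086 FPKM in males and 0.325 and 0.387 FPKM in females, against 2631, 835, 2801 and 1585 FPKM in 5th instar larvae (-10.46 ± 0.38, adjusted p = 1.67e-09). Chitin binding protein 2 (c55811_g1_i1), whose best match is from the fungus *Magnaporthe oryzae*, was high in the moth instead, with 190.1 and 351 FPKM in males and 454 and 245 FPKM in females, against 0.623, 1.23, 0.994 and 0.437 FPKM in 5th instar larvae (7.36 ± 0.27, adjusted p = 1.81e-09), and its origin was not tested. Subunits of the vacuolar proton ATPase, the pump that energizes the caterpillar midgut, were lower in 16 of 21 contigs as deposited, but in only 3 under all 4 scalings. Subunit G (c53306_g1_i1), 1 of these 3, had 389 and 437 FPKM in males and 422 and 362 FPKM in females, against 1366, 1211, 1389 and 1828 FPKM in 5th instar larvae (-1.83 ± 0.18, adjusted p = 8.92e-06).

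Detoxifying enzymes were more often lower than higher in the adult. Of 153 cytochromes P450, which oxidize plant toxins, insecticides and hormones, 75 were lower (62 under all 4 scalings) and 16 higher, with a median of -1.31. CYP321A1 (c58066_g1_i1) had 1.65 and 3.31 FPKM in males and 2.78 and 3.5 FPKM in females, against 1011, 1257, 2618 and 1328 FPKM in 5th instar larvae (-8.60 ± 0.30, adjusted p = 1.24e-09). No adult library exceeded 4 FPKM of it. CYP6AE15v2 (c58699_g1_i1) had 49.5 and 71.7 FPKM in males and 64.2 and 51 FPKM in females, against 7.19, 4.78, 30.3 and 19.8 FPKM in 5th instar larvae (2.16 ± 0.45, adjusted p = 0.00375). CYP341A13 (c62024_g1_i1) had 74.5 and 49.3 FPKM in males and 4.96 and 24.6 FPKM in females, against 0.724, 0.034, 1.18 and 1 FPKM in 5th instar larvae (4.05 ± 0.63, adjusted p = 0.000473), and males exceeded females by 2.32 ± 0.60 (adjusted p = 0.0303).

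Among the hydrolysing and conjugating families the shares differed. Of 124 carboxylesterases 89 were lower (75 under all 4 scalings) and 2 higher, with a median of -2.66. Of 60 that averaged at least 1 FPKM in both stages 32 were lower and 1 higher. The carboxyl/choline esterase c60383_g1_i1 had 0.127 and 0.031 FPKM in males and 0.045 and 0.045 FPKM in females, against 18.6, 509, 299 and 66.2 FPKM in 5th instar larvae (-6.81 ± 0.87, adjusted p = 0.000104), so that the larval libraries themselves spread widely. Antennal esterase CXE10 (c64664_g1_i2) was 1 of the 2 that rose, with 2.25 and 10.8 FPKM in males and 3.59 and 9.97 FPKM in females, against 0.051, 0.068, 0.202 and 0.075 FPKM in 5th instar larvae (2.60 ± 0.38, adjusted p = 0.000269). Glutathione S-transferases were lower in 32 of 51 contigs (22 under all 4 scalings) and higher in 4. Among them 2 neighbouring assemblies, both named microsomal glutathione S-transferase-like, ran in opposite directions, each picked as the most changed in its direction. The contig c64285_g2_i1 had 140.1 and 119.7 FPKM in males and 97.6 and 101 FPKM in females, against 26.4, 10.9, 18.1 and 13.9 FPKM in 5th instar larvae (2.71 ± 0.26, adjusted p = 8.69e-06). The contig c64285_g1_i1 had 0.209 and 3.76 FPKM in males and 0.506 and 1.86 FPKM in females, against 78, 97.6, 186 and 122 FPKM in 5th instar larvae (-5.70 ± 0.46, adjusted p = 1.75e-06). UDP-glycosyltransferases, which add sugars to small molecules, were lower in 28 of 100 contigs (23 under all 4 scalings) and higher in 9, where 19.7% of all contigs were lower, 11.2% under all 4 scalings, and 7.31% higher. UGT40R1 (c61441_g1_i1) had 0.052 and 0.14 FPKM in males and 0.117 and 0.247 FPKM in females, against 405, 1456, 569 and 884 FPKM in 5th instar larvae (-9.34 ± 0.33, adjusted p = 1.24e-09). UGT33B7 (c56158_g5_i1) had 73.3 and 30.7 FPKM in males and 4.17 and 45.6 FPKM in females, against 0, 0, 0 and 0.533 FPKM in 5th instar larvae (4.62 ± 0.66, adjusted p = 0.000244), and 3 of the 4 larval libraries listed it at 0.

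Storage proteins, which the larval fat body secretes for use in the pupa, showed the widest gap of all lists. Of 9 contigs tested 6 were lower in adults under all 4 scalings and none was higher, and their median was -10.33. They held 0.0154% to 0.0642% of the FPKM of an adult library, against 3.97% to 9.82% of a larval one. Arylphorin c45698_g1_i1 had 26.4 and 57.5 FPKM in males and 6.94 and 5.05 FPKM in females, against 37271, 13141, 46766 and 9209.7 FPKM in 5th instar larvae (-10.33 ± 0.73, adjusted p = 5.47e-07). Hexamerine c57623_g1_i1 had 3.3 and 6.96 FPKM in males and 17.3 and 5.4 FPKM in females, against 12112, 23068, 28569.9 and 8771 FPKM in 5th instar larvae (-11.00 ± 0.53, adjusted p = 1.96e-08). These were among the most abundant contigs of the larvae, and they differed several-fold among the larval pools. Apolipophorin III (c75683_g1_i1), a lipid carrier of the blood that flying insects use, had 8823 and 7337 FPKM in males and 3893 and 3819 FPKM in females, against 2801, 1359, 3289 and 2038 FPKM in 5th instar larvae (1.31 ± 0.33, adjusted p = 0.0116). The fat body marker list, 16 contigs of storage proteins, apolipophorins and the like, held 1.03% to 1.39% of an adult library, against 4.18% to 10.1% of a larval one. With only these 8 libraries in the fit, apolipophorin III no longer passed (adjusted p = 0.117).

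Sugar and trehalose transporters numbered 97, of which 33 were lower (16 under all 4 scalings) and 15 higher. Tret1-like c51266_g1_i1, named for the carrier of the insect blood sugar trehalose, had 18.3 and 8.89 FPKM in males and 3.3 and 0.882 FPKM in females, against 247, 150.4, 459.9 and 112 FPKM in 5th instar larvae (-5.07 ± 0.64, adjusted p = 9.66e-05). Sugar transporter 4 (c61708_g1_i1) had 162 and 171 FPKM in males and 72.8 and 57.1 FPKM in females, against 45.6, 27.8, 42.4 and 19.3 FPKM in 5th instar larvae (1.67 ± 0.39, adjusted p = 0.00728). Both were higher in males than in females, by 2.28 ± 0.64 (adjusted p = 0.0442) and 1.36 ± 0.37 (adjusted p = 0.0384). Of the 97 transporters 13 were higher in males (8 under all 4 scalings) and none in females, beside 6.82% and 5.56% of all contigs.

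**Figure D3:**
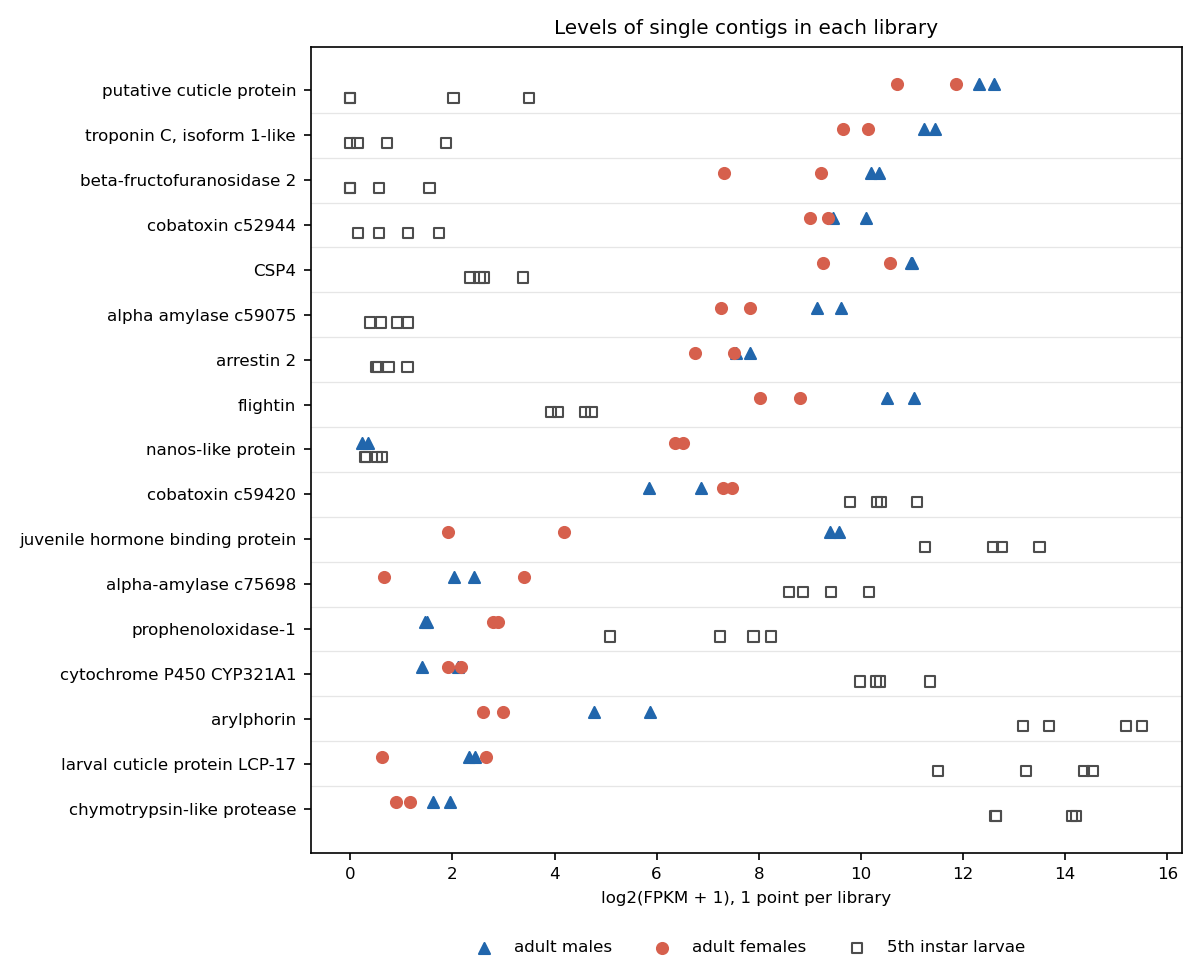
log2(FPKM + 1) of 17 contigs in each library, with adult males as triangles and females as circles above the 5th instar larvae as squares in every row. The upper rows hold contigs such as cuticle protein c48004_g1_i1, troponin C and beta-fructofuranosidase 2, near 0 to 4 in larvae and above 7 in adults, and the lower rows hold arylphorin, LCP-17 and chymotrypsin with the reverse, while nanos-like protein was high in the 2 female libraries.

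Cuticle proteins, the chitin-binding structural proteins of the exoskeleton, moved in both directions. Of 197 contigs 51 were higher (25.9%, against 7.31% of all contigs) and 56 lower (46 under all 4 scalings), so that the median was 0.00. The putative cuticle protein c48004_g1_i1 had the largest increase of the contigs named here, with 5064 and 6258 FPKM in males and 1682 and 3713 FPKM in females, against 3.06, 0, 10.3 and 0 FPKM in 5th instar larvae (10.49 ± 0.70, adjusted p = 3.54e-07). The putative cuticular protein c52812_g1_i1 had 4864 and 7779.5 FPKM in males and 2112 and 3245 FPKM in females, against 502, 130.1, 282 and 170.3 FPKM in 5th instar larvae (4.08 ± 0.45, adjusted p = 3.00e-05). On the larval side, larval cuticle protein LCP-17 (c51492_g1_i1) had 4.41 and 3.98 FPKM in males and 0.532 and 5.34 FPKM in females, against 23759, 2911, 21062 and 9656 FPKM in 5th instar larvae (-11.40 ± 0.62, adjusted p = 5.87e-08). Cuticle protein 1 (c49613_g1_i1) had 1.38 and 1.65 FPKM in males and 2.03 and 2.9 FPKM in females, against 24542, 1831, 19068 and 9123 FPKM in 5th instar larvae (-11.65 ± 0.64, adjusted p = 5.83e-08). Larval replicate 2 had the fewest FPKM of both larval proteins, with larval replicates 1 and 3 the most. In silk, spun by the labial glands of the caterpillar, 4 of 17 contigs were lower (2 under all 4 scalings) and 1 higher. These 23.5% lower and 5.88% higher were near the 19.7% and 7.31% of all contigs. Fibroin light chain (c55089_g2_i1) had 0.082 and 0.062 FPKM in males and 0.026 and 0.157 FPKM in females, against 13.3, 60.6, 133 and 60.3 FPKM in 5th instar larvae (-5.59 ± 0.52, adjusted p = 6.72e-06).

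Genes of defence were mostly lower in the adult. Of 95 antimicrobial peptides and recognition proteins 55 were lower (57.9%, 48 contigs under all 4 scalings) and 4 higher, and the median was -2.24. C-type lectin 2 (c57034_g1_i3), of a family that binds microbial sugars, had 0.045 and 0 FPKM in males and 0.065 and 0.051 FPKM in females, against 428, 102, 65 and 626 FPKM in 5th instar larvae (-7.64 ± 0.60, adjusted p = 1.52e-06). Prophenoloxidase-1 (c62818_g1_i1), the precursor of the enzyme that melanizes wounds and parasites and a marker of blood cells, had 1.75 and 1.84 FPKM in males and 5.98 and 6.4 FPKM in females, against 301, 149.9, 237 and 33.1 FPKM in 5th instar larvae (-4.95 ± 0.61, adjusted p = 7.92e-05). Of the haemocyte markers, 38 contigs with hemolin, hemocytin and integrins, 20 were lower and 3 higher in adults, so they moved with the defence genes, and their part in that result was not tested. They held 0.0512% to 0.0806% of the FPKM of an adult library, against 0.0410% to 0.103% of a larval one, and none was at 0 throughout either stage. Cobatoxin, counted here among the antimicrobial peptides, was the name of 2 contigs of opposite direction. They were picked as those highest in FPKM among the calls without overlap in each direction. The contig c52944_g1_i1 had 705 and 1093 FPKM in males and 657 and 511 FPKM in females, against 0.483, 0.113, 2.34 and 1.18 FPKM in 5th instar larvae (8.58 ± 0.33, adjusted p = 2.92e-09). The contig c59420_g2_i1 had 116 and 56.8 FPKM in males and 176 and 157 FPKM in females, against 886, 1275, 1338 and 2192 FPKM in 5th instar larvae (-3.53 ± 0.38, adjusted p = 2.48e-05).

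Hormone carriers and enzymes were mixed. Of 41 contigs named for juvenile hormone or its takeout-like binding proteins, 14 were lower (9 under all 4 scalings) and 7 higher. The takeout/JHBP like protein c56080_g1_i1 had 0.06 and 0.319 FPKM in males and 0 and 0.101 FPKM in females, against 302, 2753, 511 and 1406 FPKM in 5th instar larvae (-9.63 ± 0.58, adjusted p = 1.39e-07). Protein takeout-like c61214_g1_i2 had 23.9 and 22.4 FPKM in males and 3.8 and 10.2 FPKM in females, against 0.318, 0.385, 1.28 and 1.1 FPKM in 5th instar larvae (2.95 ± 0.46, adjusted p = 0.0005). The juvenile hormone binding protein c53616_g1_i1, which carries the hormone in the blood, had 755 and 675 FPKM in males and 2.76 and 17.1 FPKM in females, against 2451, 11579, 6144 and 6933 FPKM in 5th instar larvae (-6.26 ± 1.43, adjusted p = 0.00663). It fell in both sexes but by unequal amounts, -3.04 in males and -9.48 in females, and the sexes differed by 6.44 ± 0.76 (adjusted p = 0.000193). Of 32 ecdysone genes and nuclear receptors, 12 were lower and 4 higher. Putative ecdysone oxidase (c80839_g1_i1), of an enzyme that inactivates the moulting hormone, had 0.022 and 0.039 FPKM in males and 0 and 0.011 FPKM in females, against 119, 321, 27.8 and 295 FPKM in 5th instar larvae (-7.05 ± 0.64, adjusted p = 5.60e-06). The reductase 3-dehydroecdysone 3alpha-reductase (c52234_g1_i1) had 74.9 and 126 FPKM in males and 9.17 and 43 FPKM in females, against 0.941, 1.2, 6.21 and 3.53 FPKM in 5th instar larvae (3.73 ± 0.67, adjusted p = 0.00142).

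Ribosomes and cell division depended on scale and on sex. Of 83 cytosolic ribosomal proteins 50 were lower and none higher with the deposited FPKM, yet none passed under all 4 scalings, and their median was -1.14 as deposited, -0.03 under TPM and 0.11 after quantile normalization. Ribosomal protein S17 (c51478_g1_i1) had 1550.1 and 1458 FPKM in males and 2355 and 1658 FPKM in females, against 4469, 4970.4, 4507 and 3536 FPKM in 5th instar larvae (-1.33 ± 0.19, adjusted p = 0.000229), and -0.22 under TPM (adjusted p = 0.468). As a share of the library, ribosomal proteins held 7.79% and 9.57% in males, 16.2% and 25.9% in females, and 11.2% to 17.2% in 5th instar larvae. Males thus lay below and female replicate 3 above the larvae. Of 59 translation factors 11 were lower (18.6%, against 19.7% of all contigs), none of them under all 4 scalings. Under all 4, 3 were higher than in larvae (5.08%, against 7.31% of all contigs) and 9 were higher in females than in males. Mitochondrial ribosomal proteins had 2 of 69 contigs higher and 2 lower, 2.90% each way.

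Of 78 contigs of DNA replication and the cell cycle, 5 were lower in adults, none of them under all 4 scalings, and none was higher. The sexes parted instead: 47 of the 78 were higher in females than in males under all 4 scalings and none was higher in males, beside 5.56% of all contigs, and 39 were higher in females than in larvae while 16 were lower in males. DNA polymerase alpha subunit B-like (c63884_g1_i2) had 22.8 and 16.9 FPKM in males and 40.8 and 37.1 FPKM in females, against 56.8, 123, 57.2 and 108 FPKM in 5th instar larvae (-1.52 ± 0.33, adjusted p = 0.0052), and it did not pass under TPM or quantile normalization. Germline proteins such as nanos, vasa and aubergine gave no call among 29 contigs when adults were treated as 1 group, and 21 of them were higher in females than in males under all 4 scalings. The nanos-like protein c62723_g1_i2, named for a translational repressor of the germline, had 0.179 and 0.28 FPKM in males and 90.04 and 81.6 FPKM in females, against 0.432, 0.226, 0.537 and 0.235 FPKM in 5th instar larvae. Only the 2 female libraries were high. Its difference in adults as a whole was 2.93 ± 1.29 (SE, adjusted p = 0.112), and the sexes differed by -6.14 ± 0.21 (adjusted p = 8.03e-09).

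Muscle proteins moved in both directions. Of 72 sarcomere contigs 18 were higher (25.0%) and 23 lower (12 under all 4 scalings). Of 65 that averaged at least 1 FPKM in both stages 11 were higher and 23 lower. Troponin C, the calcium sensor of the thin filament, was the list's most changed protein. Troponin C, isoform 1-like (c57573_g1_i1) had 2816 and 2425 FPKM in males and 799 and 1122 FPKM in females, against 0.648, 0.102, 2.67 and 0 FPKM in 5th instar larvae (9.94 ± 0.46, adjusted p = 1.45e-08). Troponin C type IIIa-like protein (c57744_g1_i1) had 3688 and 2479 FPKM in males and 1286 and 1307 FPKM in females, against 2.2, 2.07, 7.66 and 3.54 FPKM in 5th instar larvae (8.80 ± 0.40, adjusted p = 1.21e-08). Flightin (c53528_g2_i1), known in flies as a myosin-binding protein of the indirect flight muscle, had 2102 and 1452 FPKM in males and 258 and 449.9 FPKM in females, against 25.4, 23.1, 14.3 and 15.8 FPKM in 5th instar larvae (5.27 ± 0.56, adjusted p = 2.13e-05). Males exceeded females in flightin by 2.35 ± 0.38 (adjusted p = 0.00202). Troponin I (c50343_g1_i2), the inhibitory subunit, was lower instead, with 539 and 369.8 FPKM in males and 332 and 236 FPKM in females, against 2014, 5393, 3258 and 4122 FPKM in 5th instar larvae (-3.29 ± 0.31, adjusted p = 7.43e-06). The list as a whole had 14 contigs higher in males than in females, of which 3 passed under all 4 scalings, and none lower, beside 6.82% and 5.56% of all contigs.

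Energy metabolism differed by pathway. Of 116 subunits of oxidative phosphorylation 25 were higher (21.6%) and 8 lower, all under the 4 scalings, and 108 of the 116 averaged at least 1 FPKM in both stages. H+ transporting ATP synthase subunit g (c53934_g1_i1) had 1417 and 1605 FPKM in males and 942 and 990.0 FPKM in females, against 717, 786, 692 and 656 FPKM in 5th instar larvae (0.76 ± 0.20, adjusted p = 0.0146). With only the 8 adult and 5th instar libraries in the fit its adjusted p was 0.103. Cytochrome c oxidase subunit 7C (c49717_g1_i1) was lower, with 74.2 and 74 FPKM in males and 41.1 and 58.4 FPKM in females, against 391, 404, 226 and 488 FPKM in 5th instar larvae (-2.57 ± 0.27, adjusted p = 2.07e-05). With the deposited FPKM, 54 of these contigs were higher and 5 lower in males than in larvae, and in females 7 and 31. The female libraries had the lowest FPKM sums, and these counts were not taken under the other scalings. The median of the list in adults was 0.22 as deposited and 1.32 under TPM. Between the sexes 14 were higher in males, but only 2 of these under all 4 scalings. The list held 12.2% and 14.6% of the FPKM of male libraries, 5.06% and 12.9% of female ones, and 3.26% to 5.44% of larval ones, and the low female value is that of replicate 3.

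In the citric acid cycle 17 of 46 contigs were higher (36.96%, against 7.31% of all contigs) and 22 lower (47.8%, against 19.7%, and 19 contigs under all 4 scalings). Among the 31 that averaged at least 1 FPKM in both stages the balance turned, with 17 higher and 9 lower. The list held 0.927% to 1.501% of the FPKM of an adult library, against 0.284% to 0.352% of a larval one. Putative citrate synthase (c57394_g1_i1), the entry enzyme of the cycle, had 1327 and 1311 FPKM in males and 589.8 and 794 FPKM in females, against 522, 149, 406 and 159 FPKM in 5th instar larvae (1.83 ± 0.41, adjusted p = 0.00631). A malate dehydrogenase (c59785_g1_i1) had 1044 and 1205 FPKM in males and 66.8 and 836 FPKM in females, against 22.7, 15.6, 30.3 and 53.7 FPKM in 5th instar larvae (4.17 ± 0.78, adjusted p = 0.00182). Its value in female replicate 3 stood apart from the other adults but stayed above every larva. Isocitrate dehydrogenase c54822_g1_i1 was lower, with 69.8 and 84.8 FPKM in males and 138 and 80.2 FPKM in females, against 872, 1375, 814 and 661 FPKM in 5th instar larvae (-3.30 ± 0.26, adjusted p = 1.68e-06). Of 29 glycolysis contigs 10 were higher and 3 lower. Fructose-bisphosphate aldolase (c59084_g1_i2) had 975 and 1189 FPKM in males and 593 and 647 FPKM in females, against 146, 172, 133 and 249.5 FPKM in 5th instar larvae (2.26 ± 0.27, adjusted p = 5.85e-05). The 6-phosphofructokinase-like contig c64444_g1_i1, of the step that commits sugar to glycolysis, had 76.2 and 56 FPKM in males and 24.4 and 33.4 FPKM in females, against 6.28, 4.26, 9.28 and 8.18 FPKM in 5th instar larvae (2.51 ± 0.34, adjusted p = 0.000166), and males exceeded females by 1.17 ± 0.33 (adjusted p = 0.0468). Fatty acid oxidation had 22 of 57 contigs lower (12 under all 4 scalings) and 3 higher. Putative acyl-coa dehydrogenase c62365_g2_i1, of the first step of the pathway, had 600.5 and 598 FPKM in males and 526 and 325 FPKM in females, against 39.4, 35.2, 59.96 and 25 FPKM in 5th instar larvae (3.68 ± 0.29, adjusted p = 1.52e-06). The short/branched chain specific acyl-CoA dehydrogenase c61640_g1_i1 had 23.5 and 19.1 FPKM in males and 81.9 and 30.7 FPKM in females, against 700.2, 315, 477 and 382 FPKM in 5th instar larvae (-3.73 ± 0.40, adjusted p = 2.41e-05).

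The eye list had the highest share of calls towards the adult. Of 23 contigs of opsins and phototransduction 16 were higher (69.6%, against 7.31% of all contigs), all under the 4 scalings, and none was lower, with a median of 2.49. Only 10 of the 23 averaged at least 1 FPKM in both stages, 6 of them higher. Of the 23 contigs, 16 were higher in males than in larvae and 15 in females. Arrestin 2 (c62854_g1_i1), which switches off light-activated opsin, had 187 and 225 FPKM in males and 181 and 107 FPKM in females, against 0.458, 1.18, 0.416 and 0.682 FPKM in 5th instar larvae (6.68 ± 0.25, adjusted p = 2.30e-09). The long-wavelength opsin LWS1 (c52406_g1_i1) had 145 and 115 FPKM in males and 119.7 and 60.7 FPKM in females, against 0.47, 0.939, 0.242 and 0.064 FPKM in 5th instar larvae (6.25 ± 0.29, adjusted p = 1.41e-08). Its intronless relative LWS2 (c57977_g1_i1) did not pass, with 0.097 and 0.047 FPKM in males and 0.045 and 0 FPKM in females, against 0.674, 0.328, 0 and 0.714 FPKM in 5th instar larvae (-0.42 ± 0.21, adjusted p = 0.157). Without larval replicate 3, where it was listed at 0, the difference was -0.58 (adjusted p = 0.0481). The 2 coding sequences match at 925 of 1137 aligned bases (81.4%). The stretch from aligned base 37 to 66 is shown because these opsins, 1 of which rose and 1 of which did not pass, differ there in 7 of 30 bases, given in capitals.
LWS1: gcCgccctGcaagcAtggggCggccaGgTA
LWS2: gcAgccctCcaagcCtggggAggccaAgCT

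The chemical senses were divided. Of 41 odorant and pheromone binding proteins, small carriers of odour molecules, 17 were higher (41.5%) and 12 lower (6 under all 4 scalings), and of 18 that averaged at least 1 FPKM in both stages 3 were higher and 9 lower. Odorant-binding protein 19 (c54998_g1_i1) had 129 and 183 FPKM in males and 32.6 and 89.1 FPKM in females, against 0.14, 2.22, 0.376 and 0.341 FPKM in 5th instar larvae (5.84 ± 0.53, adjusted p = 5.62e-06). Odorant-binding protein-2 precursor (c53380_g1_i1) was the reverse, with 0.231 and 0.163 FPKM in males and 0.156 and 0.124 FPKM in females, against 596, 864, 291 and 665 FPKM in 5th instar larvae (-8.91 ± 0.34, adjusted p = 2.77e-09). The contig c56335_g1_i1, also described as an odorant binding protein, had 8.8 and 9.31 FPKM in males and 40.7 and 20.4 FPKM in females, against 84.6, 11396, 395 and 853 FPKM in 5th instar larvae (-5.45 ± 1.13, adjusted p = 0.00363), so that larval replicate 2 stood far above the other larvae. Chemosensory proteins, another family of small carriers, were higher in 11 of 25 contigs and lower in 8 (5 under all 4 scalings). CSP4 (c58603_g2_i1) had 2011 and 2038 FPKM in males and 1527 and 613 FPKM in females, against 4.08, 4.79, 5.14 and 9.38 FPKM in 5th instar larvae (7.73 ± 0.37, adjusted p = 1.84e-08). Chemosensory protein 11 (c58603_g1_i1) had 627 and 1067 FPKM in males and 1352 and 465 FPKM in females, against 2799, 2523, 4583 and 3895 FPKM in 5th instar larvae (-2.06 ± 0.32, adjusted p = 0.0005). The receptors themselves could hardly be followed in whole bodies, since 5 of 82 contigs passed the filter. The 1 with a call was described as sensory neuron membrane protein 2-like (c46740_g1_i1), with 0.149 and 0.474 FPKM in males and 0.221 and 0.034 FPKM in females, against 19.5, 9.5, 15.4 and 9.74 FPKM in 5th instar larvae (-3.53 ± 0.26, adjusted p = 9.55e-07).

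Nervous and pigment genes had calls in both directions. Of 78 synapse and ion channel contigs 18 were higher (23.1%, against 7.31% of all contigs) and 17 lower (6 under all 4 scalings). Of 55 that averaged at least 1 FPKM in both stages 9 were higher and 14 lower. A voltage-dependent L-type calcium channel beta subunit (c61105_g5_i4) had 45.5 and 31.2 FPKM in males and 19.9 and 17.3 FPKM in females, against 1.7, 1.06, 1.63 and 0.832 FPKM in 5th instar larvae (3.59 ± 0.28, adjusted p = 1.51e-06), and males exceeded females by 0.99 ± 0.26 (adjusted p = 0.0351). The inward rectifier potassium channel irk-1-like (c58041_g1_i1) had 0.515 and 1.62 FPKM in males and 1.81 and 0.943 FPKM in females, against 29.4, 23.1, 17.9 and 15.6 FPKM in 5th instar larvae (-3.34 ± 0.25, adjusted p = 1.02e-06). Of 59 neuropeptides and their receptors 22 were lower (37.3%, against 19.7% of all contigs, and 14 contigs under all 4 scalings) and 6 higher. VAP-peptide precursor (c46722_g1_i1) had 1452 and 266 FPKM in males and 13.7 and 165 FPKM in females, against 0.165, 0, 0.228 and 0 FPKM in 5th instar larvae (7.33 ± 0.99, adjusted p = 0.000163), a wide spread among adults, and males exceeded females by 3.65 ± 0.96 (adjusted p = 0.0333). Neuropeptide receptor B3 (c62444_g1_i1) had 1.73 and 1.57 FPKM in males and 0.045 and 0.067 FPKM in females, against 41, 34.2, 46.8 and 31.1 FPKM in 5th instar larvae (-4.54 ± 0.33, adjusted p = 7.90e-07). It fell in both sexes and was higher in males than in females by 1.33 ± 0.24 (adjusted p = 0.00425). Of 43 pigment genes 10 were higher (23.3%), and 6 were lower but none of these under all 4 scalings. Tyrosine hydroxylase (c55595_g1_i1), which makes dopa for dark pigment and cuticle hardening, had 342 and 161 FPKM in males and 41.8 and 69.3 FPKM in females, against 5.2, 1.6, 2.07 and 2.82 FPKM in 5th instar larvae (4.94 ± 0.62, adjusted p = 8.35e-05).

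**Figure D4:**
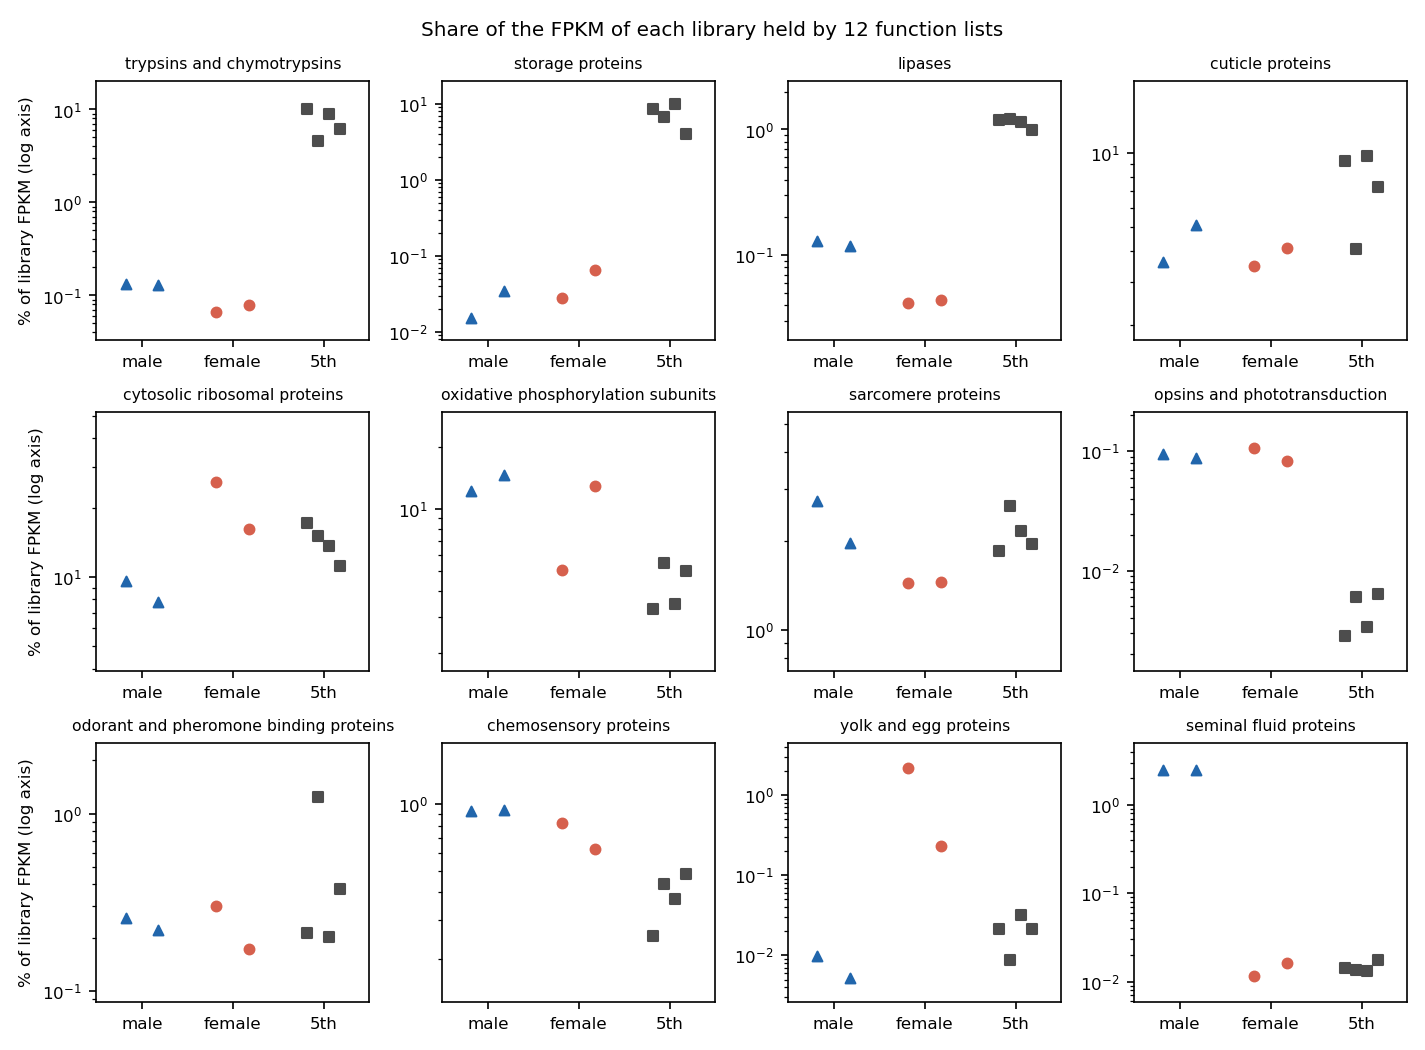
Percent of the FPKM of each library, on log axes, held by 12 function lists in adult males (triangles), adult females (circles) and 5th instar larvae (squares). Trypsins and chymotrypsins held at most 0.131% in adults and at least 4.56% in larvae, and seminal fluid proteins held 2.46% and 2.48% in males and no more than 0.0175% elsewhere.

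Reproductive lists held contigs that differed between the sexes. Of 8 yolk and egg contigs 1 was higher and 3 lower in adults (37.5%, against 19.7% of all contigs), and 3 were higher in females than in males under all 4 scalings. Vitellogenin c63919_g1_i1, the main yolk precursor, had 2.23 and 0.505 FPKM in males and 1209 and 465 FPKM in females, against 0.508, 0, 1.36 and 0.011 FPKM in 5th instar larvae. Its difference was 4.89 ± 1.78 (SE, adjusted p = 0.0628) in adults together, while females exceeded males (males minus females -8.41 ± 0.53, adjusted p = 9.16e-07). Egg-specific protein precursor (c54420_g1_i1) had 16.6 and 2 FPKM in males and 10491 and 487 FPKM in females, against 2.39, 0, 4.5 and 0.053 FPKM in 5th instar larvae (5.93 ± 1.93, adjusted p = 0.0396). The 2 females were far apart, the stages overlapped, and the call was lost without either female (adjusted p = 0.0561 without replicate 3 and 0.0895 without replicate 4) and without any 1 of the 4 larval libraries (0.0544 to 0.0930). Vitellogenin receptor (c65659_g1_i1), which takes yolk into the oocyte, had 0.179 and 0.008 FPKM in males and 112 and 25.9 FPKM in females, against 0.025, 0.023, 0.054 and 0.011 FPKM in 5th instar larvae (males minus females -5.66 ± 0.49, adjusted p = 1.46e-05). In another contig named vitellogenin protein (c63881_g5_i1) the larvae were high instead, with 0 and 0 FPKM in males and 2.41 and 2.13 FPKM in females, against 214, 6.3, 365 and 32.2 FPKM in 5th instar larvae (-5.19 ± 1.05, adjusted p = 0.00305), and both male libraries listed it at 0.

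Seminal fluid proteins, made by the male accessory glands, numbered 38. Of these 3 were higher (7.89%, against 7.31% of all contigs) and 10 lower in adults (26.3%, against 19.7%). Between the sexes 21 were higher in males than in females (17 under all 4 scalings), beside 6.82% of all contigs. The list held 2.46% and 2.48% of the FPKM of male libraries, 0.0116% and 0.0161% of female ones, and 0.0131% to 0.0175% of larval ones. Pheromonostatic peptide 1 (c52738_g1_i2), named for a male peptide that stops pheromone release in mated *Helicoverpa zea* females and chosen here after its values were seen, had 5129 and 5505 FPKM in males and 0.526 and 0.421 FPKM in females, against 1.75, 0, 0.484 and 0 FPKM in 5th instar larvae. Only the males were high, by 11.82 ± 0.43 against females (adjusted p = 1.23e-08), while adults together did not pass (5.96 ± 2.47, adjusted p = 0.0975). The contig named seminal fluid protein HACP049 (c61896_g1_i1) had 9.5 and 2.84 FPKM in males and 2.34 and 0.202 FPKM in females, against 0.038, 0.068, 0.148 and 0 FPKM in 5th instar larvae (1.75 ± 0.51, adjusted p = 0.0236), a call lost at adjusted p = 0.0810 with only these 8 libraries in the fit. CSSFP001 (c62079_g1_i1), named for a seminal fluid protein too, had 0.246 and 0.07 FPKM in males and 0.188 and 0.017 FPKM in females, against 8.9, 12.8, 23.7 and 5.71 FPKM in 5th instar larvae (-3.44 ± 0.33, adjusted p = 8.67e-06).

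Among 37 testis and sperm contigs 2 were higher and 2 lower in adults (5.41% each way, against 7.31% and 19.7% of all contigs). Tektin-2-like (c59641_g1_i1), of a family of sperm tail filaments, had 26.1 and 28 FPKM in males and 0 and 0.045 FPKM in females, against 0.076, 55.8, 27.2 and 44.9 FPKM in 5th instar larvae. Males and 3 of the larval libraries were above 25 FPKM, whereas both females and larval replicate 1 were below 0.1 FPKM, and adults together gave -1.65 ± 1.39 (SE, adjusted p = 0.418). The sex of the larvae in a pool was not tested.

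**Figure D5:**
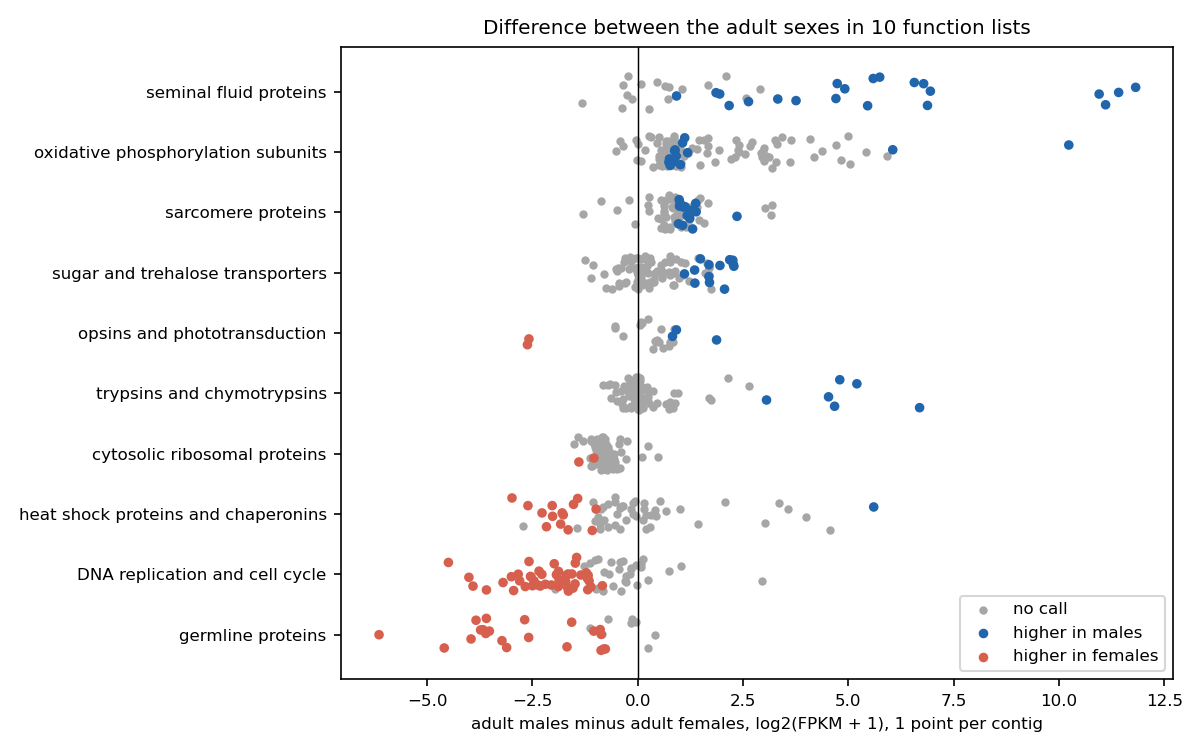
Adult males minus adult females on log2(FPKM + 1) for every contig tested in 10 function lists, with contigs that passed coloured blue (higher in males) or red (higher in females). Seminal fluid proteins reach 11.82 in males, and DNA replication and germline contigs lie to the left, with 47 of 78 and 21 of 29 higher in females.

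Proteasome subunits, which degrade tagged proteins, were called in 1 direction with adults as 1 group. Of 46 contigs 10 were higher (21.7%, against 7.31% of all contigs) under all 4 scalings and none lower, and the list held 0.673% to 0.887% of the FPKM of an adult library, against 0.181% to 0.365% of a larval one. With the deposited FPKM 17 were higher and none lower in males than in larvae, while in females 3 were higher and 2 lower. Between the sexes 2 were higher in males, neither of them under all 4 scalings. The 26S protease regulatory subunit 8 (c59341_g1_i1) had 205 and 189 FPKM in males and 138 and 132 FPKM in females, against 85.5, 73.7, 105 and 85.7 FPKM in 5th instar larvae (0.90 ± 0.20, adjusted p = 0.00592). With adults treated as 1 group, heat shock proteins and chaperonins had fewer calls than all contigs in both directions. Of 61 contigs 9 were lower (14.8%, against 19.7% of all contigs), 2 of them under all 4 scalings, and 3 higher (4.92%, against 7.31%). The sexes differed, however. With the deposited FPKM 23 were lower and 3 higher in males than in larvae, and in females 9 and 4, where 18.8% and 19.8% of all contigs were lower. Between the sexes 14 of the 61 were higher in females (13 under all 4 scalings) and 1 in males, beside 5.56% and 6.82% of all contigs. Heat shock protein hsp20.1 (c56846_g1_i1) had 239.7 and 176 FPKM in males and 116 and 88.4 FPKM in females, against 0.178, 2.16, 0.363 and 0.224 FPKM in 5th instar larvae (6.52 ± 0.36, adjusted p = 6.66e-08). Small heat shock protein 19.3 (c62250_g3_i1) had 8.56 and 10.2 FPKM in males and 17.1 and 5.94 FPKM in females, against 182, 1098, 122 and 362 FPKM in 5th instar larvae (-4.84 ± 0.56, adjusted p = 4.58e-05). These 2 small chaperones, which hold unfolded proteins, were named as the most changed in each direction, so their opposite directions follow from the choice.

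Of 110 desaturases, fatty acyl reductases and elongases, which shape fatty acids, waxes and pheromones, 28 were lower (25.5%, against 19.7% of all contigs) and 13 higher (11.8%, against 7.31%). Under all 4 scalings 10 were lower (11.2% of all contigs were). Probable C-5 sterol desaturase (c60702_g1_i1) had 1.9 and 2.67 FPKM in males and 0.071 and 0.112 FPKM in females, against 625, 291, 386 and 204 FPKM in 5th instar larvae (-7.52 ± 0.45, adjusted p = 1.22e-07). Elongase c61767_g1_i1 had 16.8 and 52 FPKM in males and 5.41 and 11 FPKM in females, against 1.66, 0.589, 2.19 and 0.81 FPKM in 5th instar larvae (2.88 ± 0.52, adjusted p = 0.00133). Both were higher in males than in females, by 1.58 ± 0.44 (adjusted p = 0.0405) and 1.81 ± 0.52 (adjusted p = 0.0468).

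Among 46 homeobox contigs, transcription factors that pattern the body, 8 were lower (17.4%, against 19.7% of all contigs) and 4 higher (8.70%, against 7.31%), near the background with adults as 1 group. The sexes leaned apart: with the deposited FPKM 16 were higher and 6 lower in males than in larvae, and in females 4 and 14. Over all contigs 12.6% were higher and 18.8% lower in males, and 8.85% and 19.8% in females. Between the sexes 9 of the 46 were higher in males (5 under all 4 scalings) and 1 in females, beside 6.82% and 5.56% of all contigs. Of the 19 homeobox contigs that averaged at least 1 FPKM in both stages none was lower in adults and 1 was higher. Homeotic protein labial (c63325_g1_i1), which in flies acts in the head and in the midgut, had 0.291 and 0.117 FPKM in males and 0.208 and 0.281 FPKM in females, against 82.6, 49.8, 56.1 and 30.03 FPKM in 5th instar larvae (-5.42 ± 0.26, adjusted p = 2.04e-08). Homeobox protein Nkx-2.2a-like (c60973_g1_i1) had 7.16 and 9.27 FPKM in males and 5 and 5.17 FPKM in females, against 0.635, 0.589, 0.564 and 0.544 FPKM in 5th instar larvae (2.24 ± 0.20, adjusted p = 4.49e-06). Transposon proteins were below the background in both directions, with 35 of 237 contigs lower (14.8%, against 19.7%) and 6 higher (2.53%, against 7.31%). Under all 4 scalings 8 of the 237 were lower, where 11.2% of all contigs were. The reverse transcriptase contig c58768_g8_i11 had 5.12 and 2.86 FPKM in males and 6.67 and 3.39 FPKM in females, against 54.4, 36.5, 76.7 and 49.5 FPKM in 5th instar larvae (-3.33 ± 0.29, adjusted p = 4.45e-06).

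Marker lists of single tissues were set against the stage labels. The larval midgut list (153 contigs) held 0.110% to 0.162% of the FPKM of adult libraries, against 4.76% to 10.4% of larval ones, with 30 contigs at 0 in every adult. The eye list (11 contigs) held 0.0557% to 0.0785% in adults, against 0.00096% to 0.00283% in larvae, and the flight muscle list (15 contigs) 0.518% to 1.45%, against 0.176% to 0.304%, although 4 of its contigs were higher and 5 lower in adults. The antennal list came down to 1 contig, too few to check. Contigs whose best match was a plant, protist, fungus, nematode, mammal or virus of a set of named genera numbered 102 and held 0.264% to 1.05% in adults, against 0.545% to 0.969% in larvae. Of these 6 were higher and 29 lower in adults, and their part in the lists was not tested.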

How the data were processed

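RNA of whole-body pools was sequenced. The authors assembled the reads of all libraries with Trinity, mapped them with Bowtie 0.12.7 and estimated abundance with RSEM 1.1.17 (versions as in the submitters' processing notes). They deposited FPKM values per contig, without counts, so the depth of a value is not known and intervals for counting error are left out. The deposited annotation gave best matches in nr and Swiss-Prot.

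Contigs with a mean of at least 1 FPKM over the 12 libraries were kept. log2(FPKM + 1) was fitted in all 12 libraries with limma 3.58.1 (trend, R 4.3.3), with 3 stages, or with the adult sexes apart, and p-values were adjusted by Benjamini-Hochberg over 27678 contigs. Nothing says whether pools came from separate rearings, so p-values measure the spread between these libraries. The fit was tested on simulated data with 200 changed contigs: 64.3% of changes of 2 and 86.3% of changes of 3 (log2) were recovered, and 3.82% of calls were false. The simulated contigs were independent, with the spread taken within the sexes, no difference between the sexes and no shift of scale between libraries. The real data had all of these and far more calls, so the rates do not carry over to them.

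The contigs and the 43 lists were chosen with earlier results of these data known. Named per list, without overlap between the stages, are the contigs highest in FPKM and most changed in each direction, plus the 10 most changed over all and the opsins of the study. Prophenoloxidase-1, flightin, apolipophorin III, vitellogenin, egg-specific protein, vitellogenin receptor, tektin-2-like and pheromonostatic peptide 1 were added after their values were seen. Not every contig the rule gives is described. The 2 opsin stretches come from the study's alignment of coding sequences. Alternatives were scalings, filters, pseudocounts, unigene sums, the libraries in the fit, a replicate block and leaving out each library. Median ratios, quantiles and equal sums were computed from the deposited FPKM. Figures were drawn with matplotlib 3.10.9.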

Additional observations from a re-analysis of the deposited data

Results flagged for a closer look

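In 9 of 198 groups of 4 libraries tested (4.55%), 1 library stood apart by Dixon's ratio, the gap to its neighbour over the group's range, at the 0.05 level. Chance alone flags about 1 in 20 groups. Female replicate 3 was that library among adults for trypsin CFT-1-like (ratio 0.947), the LCP-17 cuticle protein (0.83), malate dehydrogenase (0.873) and the share held by yolk and egg proteins (0.898, at 2.19% of the library), and male replicate 1 for the carboxyl/choline esterase c60383_g1_i1 (0.849). Among larvae it was replicate 4 for UGT33B7 (1.0, the only library above 0), replicate 3 for antennal esterase CXE10 (0.832), and replicate 2 for hsp20.1 (0.852) and for the share of odorant and pheromone binding proteins (0.831).

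The difference from 5th instar larvae was unequal in the sexes for 18 contigs named here, by the limma contrast of males minus females on log2(FPKM + 1). It was higher in males for 14, of which 6 passed under all 4 scalings: alpha amylase (1.83), Tret1-like (2.28), flightin (2.35), neuropeptide receptor B3 (1.33), juvenile hormone binding protein (6.44) and pheromonostatic peptide 1 (11.82). The other 8 were CYP341A13 (2.32), sugar transporter 4 (1.36), 6-phosphofructokinase-like (1.17), the calcium channel beta subunit (0.99), VAP-peptide precursor (3.65), takeout-like (1.72), the elongase (1.81) and C-5 sterol desaturase (1.58). The 4 higher in females passed under all 4 scalings: nanos-like protein (-6.14), vitellogenin (-8.41), egg-specific protein (-8.28) and vitellogenin receptor (-5.66).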

How the results depend on the processing

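Scaling moved the directions most: of 2022 higher and 5460 lower contigs, TPM gave 7773 and 3175, quantile normalization 3976 higher, and 3096 of those lower passed under all 4 scalings (chosen after seeing the data). A mean of at least 5 FPKM left 4663 calls in all in place of 7482 (1011 higher), 5401 for males and 4913 for females against larvae, and 1800 between the sexes, since fewer contigs were tested. With only the 8 libraries in the fit the counts were 4534 (1063 higher and 3471 lower), 5374, 4019 and 1589. The sexes as 2 groups gave 3616 higher. Females against larvae gave 13580 calls under TPM. Males against females gave 5274 under TPM and 5864 with no filter. Leaving out 1 library gave 6370 to 8328 calls (1607 to 3021 higher, 4687 to 6215 lower), 5212 to 10287 in males, 4573 to 9251 in females, and 1958 to 4543 between the sexes. Of the 81 named contigs that passed, 79 to 80 did so without 1 library. Most of them were named because they passed without overlap between the stages, so this follows largely from the choice. Over 22 alternatives 1873 of 1909 values for the 87 named contigs kept their direction and their side of the threshold, and ribosomal protein S17 (c51478_g1_i1) turned to 0.10 after quantile normalization. The cause was not tested.

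Whether replicate numbers pair the libraries could not be told from correlations of deviations from the group mean. Those of same-numbered adult and larval libraries were -0.0465, -0.2367, -0.0571 and 0.0917. Each adult sex had 2 libraries, so its 2 deviations mirror each other. Their correlations with a larval library therefore have equal size and opposite sign. The labels also number the female libraries in more than 1 way. With a replicate block 1712 contigs were higher and 4977 lower in adults, and 1520 differed between the sexes in place of 3427. By the numbers used here males and females shared no replicate, so among adults the block cannot be separated from sex. The lower count for the sexes therefore does not show how far that comparison depends on pairing. The table holds no counts, so low values could not be given an error from depth.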
